A study of Mus musculus with 18 samples.

Results

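Resting Treg and Treg-like cells are the CD4 T cells that the authors' detailed annotation places in the cluster of resting regulatory T cells, whose deposited marker string includes Ccr7+, Cd44- and Foxp3+. Members were taken from that annotation alone. They number 1000 of the 26652 cells in the series, beside 19747 resting conventional T (Tconv) cells and 769 activated Treg cells. In ∆Foxp3 mice the name refers to cells that resemble Treg cells in their RNA while carrying a disrupted Foxp3 gene.

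RNA of single TCRβ+ CD4+ cells sorted from the spleens of male mice was counted with 10x Genomics kits, which tag the end of each transcript with a unique molecular identifier (UMI). In the V2 experiment, named after the kit version, the ∆Foxp3 mice (B6 Foxp3DeltaEGFPiCre x ROSA-YFP, in which a GFP and Cre cassette stands in the disrupted Foxp3 gene) and the WT mice (Foxp3-IRES-GFP) were both 3 weeks old, with 2 samples each. In the V3 experiment, the ∆Foxp3 mice of the same cross were 3 weeks old and the WT mice (B6 Foxp3-IRES-GFP x CD45.1) were 9 weeks old, again with 2 samples each, so that genotype, age and the CD45.1 background change together and cannot be told apart. From WT mice of that strain and age, GFP+ Treg cells and GFP- Tconv cells were also sorted, with 2 samples each. In the mixed bone marrow chimeras (BMC, V3 kit), irradiated CD45.2 recipients, 7 weeks old per the study's design text, had been given 50:50 mixtures of ∆Foxp3 (CD45.1/2) and WT (CD45.1) marrow, and 10 weeks later, at an age labelled as 16 weeks (which the times in that text do not exactly match), cells of both origins were sorted by CD45.1 and CD45.2 from the same host, with 3 samples of each origin. The ∆Foxp3 cells of a chimera thus share their host with WT Treg cells, whereas intact ∆Foxp3 mice have no WT cells. Within a V3 group, both samples have the same hashtag, split over 2 10x tubes, and may come from 1 mouse, and no label states separate animals for V2, so p-values measure the spread between these samples, which may be technical. In chimeras, same-numbered samples of both origins carry the same hashtag and so the same host. There the CD45 alleles change together with genotype and cannot be told apart from it.

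Treg cells restrain other lymphocytes, and loss of Foxp3, the transcription factor that defines them, causes fatal autoimmunity in young male mice. Cells that start the Treg programme without functional Foxp3 protein still transcribe the locus, which is why a reporter placed in it marks them. Il2ra encodes the high-affinity IL-2 receptor chain CD25, Ikzf2 encodes the transcription factor Helios, and Ccr7 encodes the chemokine receptor that guides naive and resting T cells to lymphoid organs. Resting Treg cells recirculate through lymphoid organs and depend on IL-2, whereas activated Treg cells lose Ccr7 and gain genes of effector function and tissue entry.

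The numbers of resting Treg cells set the depth of every comparison. They were 63 and 22 in V2 ∆Foxp3 samples A and B, against 220 and 171 in V2 WT samples. In the V3 experiment they were 21 and 24 in ∆Foxp3 samples, against 24 and 13 in WT samples. In the chimeras they were 26, 16 and 26 among ∆Foxp3 cells, against 36, 84 and 38 among WT cells. Sums of at least 10 cells, sorted Treg samples included, held 69241 to 665999 UMIs per sample, and the median per cell was 2494 to 3175 in V2 samples, against 4759 to 7627 in V3 and chimera samples. All 10 genes of a CD4 T cell list were detected in every group. Single libraries of 2 groups are described here. In V2 ∆Foxp3 sample B, 86.4% of the resting Treg cells held a UMI of Cd79a, Ms4a1, Lyz2, Csf1r, Tyrobp, Hba-a1, Hbb-bs, Pf4 or Ppbp, foreign markers of B cells, myeloid cells, red cells and platelets, against 0 to 30.9% in the other samples. The fraction of that library's reads that fell in cells was 0.534, against 0.597 in the other V2 ∆Foxp3 library and 0.791 and 0.795 in V2 WT libraries. In sample B 19 of 22 resting Treg cells held such a UMI, so too few remained for the minimum of 10 cells. V2 fits after cells with foreign marker UMIs were left out therefore hold ∆Foxp3 sample A alone. Among chimera samples, ∆Foxp3 sample 2 differed from its replicates 1 and 3 by a chi-square per degree of freedom of 2.04 and 1.87, while those replicates differed from each other by 1.17. The samples of a pair also differed by 1.82 in V2 ∆Foxp3, 1.79 in V3 WT and 1.61 in V3 ∆Foxp3, against 1.24 in V2 WT. Chimera ∆Foxp3 sample 2 was run in the second 10x tube and samples 1 and 3 in the first. The WT sample of each host was in the other tube, so that this ∆Foxp3 library and its tube cannot be told apart within its group. Values without either library are given beside results that it moved most.

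Reads of the targeted locus were counted by the authors as separate Foxp3, GFP and Cre UMIs. Foxp3 UMIs in resting Treg cells numbered 3 and 2 in V2 ∆Foxp3 samples, against 14 and 11 in V2 WT samples. They numbered 4 and 7 in V3 ∆Foxp3 samples, against 2 and 0 in V3 WT samples, where 0 of 13 cells allows a share of up to 23.1%. In chimeras they numbered 0, 3 and 2 in ∆Foxp3 samples, against 3, 12 and 6 in WT samples, where 0 of 26 cells in ∆Foxp3 sample 1 allows a share of up to 11.5%. Foxp3 was too low to be tested, and no source used here says which part of the gene these reads cover, so Foxp3 counts do not check the genotype. Its UMIs were found in 0 to 1.88% of resting Tconv cells per sample, against a median of 8.33% of resting Treg cells over the 14 unsorted samples.

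Cre gave 8 UMIs in 198 resting Treg cells of ∆Foxp3 samples and none in 799 resting Treg cells of WT samples, sorted Treg samples included, which allows a share of up to 0.375%. In V3 ∆Foxp3 samples Cre was also found in 1.88% and 2.10% of resting Tconv cells. GFP shares of the genotypes overlapped in V2 and in chimeras and lay apart in V3. In V2, GFP UMIs were found in 47.6% and 31.8% of ∆Foxp3 resting Treg cells, against 27.3% and 35.7% of WT cells. In V3 the shares were 81.0% and 70.8% of ∆Foxp3 cells, against 33.3% and 46.2% of WT cells. In chimeras they were 11.5%, 37.5% and 15.4% of ∆Foxp3 cells, against 36.1%, 36.9% and 57.9% of WT cells. The order of the V3 groups did not change after each cell was thinned to 1500 UMIs, with medians of 39.9% in ∆Foxp3 cells and 15.7% in WT cells. GFP shares in resting Tconv cells were unequal between the genotypes. Their median was 33.7% in V3 ∆Foxp3 samples, against 1.22% in V3 WT samples, and 7.55% in V2 ∆Foxp3 samples, against 1.26% in V2 WT samples. The ∆Foxp3 mice of V2 and V3 also carry ROSA-YFP, and whether its reads were counted as GFP was not tested. GFP UMIs of the genotypes may thus not measure the same transcript. V3 ∆Foxp3 resting Tconv cells also carried Ikzf2 UMIs in 43.9% and 51.4% of cells, against 2.28% and 3.56% in V3 WT, so the clusters annotated as resting Tconv in those libraries hold cells with Treg-associated transcripts.

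Against resting Tconv cells of the same libraries, resting Treg cells were set apart by the interleukin-2 receptor and by transcription factors of the Ikaros family. The annotation was made from these same genes, so the values are a description without a test. Among 14 unsorted samples (7 ∆Foxp3 and 7 WT), 7 of 5210 genes were at least 2-fold higher in every sample (0.134% of the genes compared) and 0 were at least 2-fold lower in every sample (0%). The 7 were Ikzf2, Il2ra, Rgs1, a regulator of chemokine receptor signals, Gpr83, an orphan receptor of Treg cells, Tnfrsf4, which encodes the costimulatory receptor OX40, Ikzf4, which encodes Eos, a Foxp3 partner, and Cish, a target of IL-2 signalling. Ikzf2 averaged 351 ± 180 CPM (UMIs of the gene per 1000000 UMIs of the sum) in resting Treg cells, against 35.6 ± 57.0 CPM in resting Tconv cells (SD, n = 14 samples). Il2ra averaged 204 ± 116 CPM in resting Treg cells, against 6.74 ± 4.60 CPM in resting Tconv cells, and the log2 ratio within a sample ran between 1.58 and 5.22. Dapl1, a gene of naive T cells, was lower than in resting Tconv cells in all 14 samples, at 44.4 ± 48.2 CPM in resting Treg cells and 327 ± 169 CPM in resting Tconv cells.

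The 4 marker genes did not behave alike. Ikzf2 and Il2ra were higher in resting Treg than in resting Tconv cells in 14 of 14 samples, and Foxp3 in 12 of 14. Ccr7 was higher in 4 of 14 samples, at 258 ± 151 CPM in resting Treg cells and 352 ± 120 CPM in resting Tconv cells, so it separates resting from activated Treg cells and not Treg from Tconv cells here. Against activated Treg cells, Ccr7 was higher in 16 of 16 samples, with a median log2 ratio of 2.06. In that comparison 2 of 5733 genes were at least 2-fold higher in every sample (0.0349%), among them Gpr83, and 6 were at least 2-fold lower (0.105%). The 6 lower genes were Maf, Pdcd1, Bcl2a1b, Rilpl2, AW112010 and Srgn. Maf, a transcription factor of effector T cells, averaged 62.1 ± 104 CPM in resting Treg cells, against 592 ± 238 CPM in activated Treg cells (SD, n = 16 samples), and Pdcd1, which encodes the inhibitory receptor PD-1, averaged 13.0 ± 16.7 CPM against 142 ± 72.5 CPM. Gpr83 averaged 164 ± 75.1 CPM in resting Treg cells, against 16.6 ± 19.5 CPM in activated Treg cells. Il2ra was higher in resting than in activated Treg cells in 15 of 16 samples and Ikzf2 in 1 of 16. Of a list of 20 genes of resting Treg cells, 19 had a median ratio above 0, with a list median of 1.22, and of 31 measured genes of an activated Treg list 1 did, with a median of -1.47, beside a median of -0.17 over all genes compared. The annotation was made from these same genes, so the markers describe the label and do not test it, with the limit that resting Tconv cells carry Ccr7 as well. A further limit holds for V3 ∆Foxp3 cells of this label. Against V3 WT cells, 16 of 20 tested activated Treg genes were higher in them and 9 of 20 tested resting Treg genes were lower. Of all 3183 genes tested there, 3.46% were higher and 4.02% were lower.

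**Figure D1:**
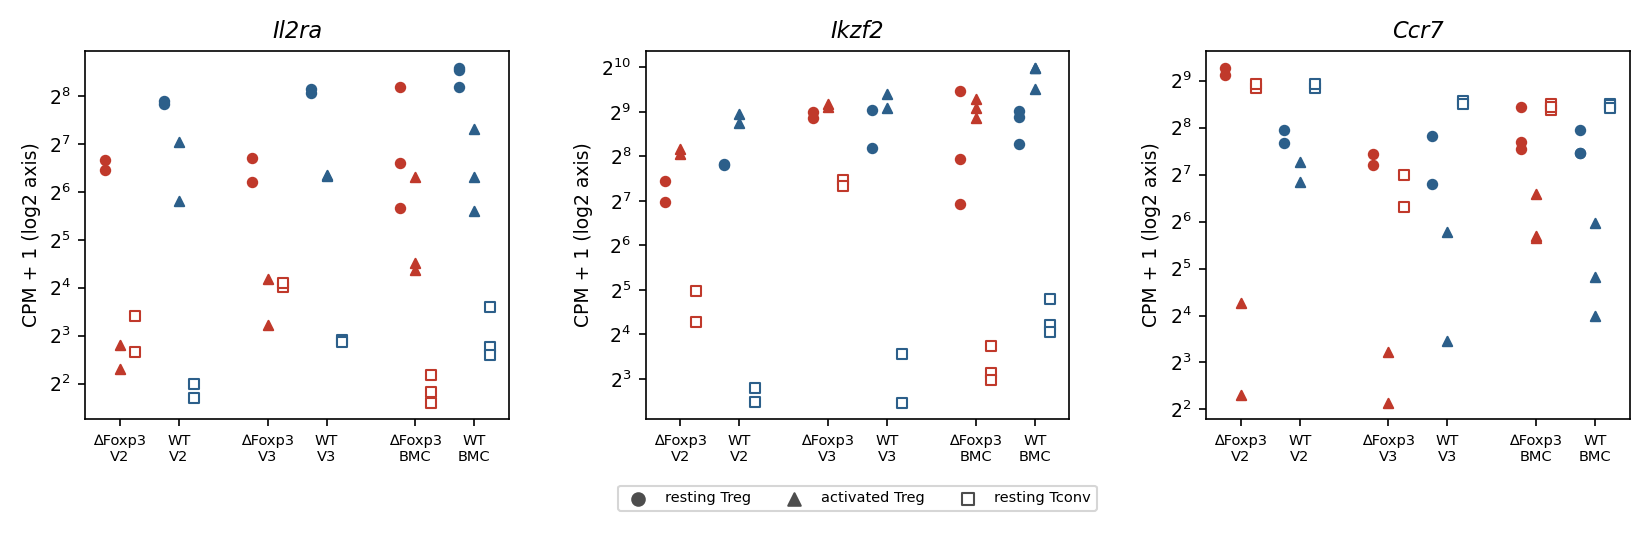
Levels of the marker genes in CPM plus 1 on a log2 axis for each sample, with circles for resting Treg, triangles for activated Treg and hollow squares for resting Tconv cells, ∆Foxp3 in red and WT in blue. Ikzf2 and Il2ra lie higher in resting Treg than in resting Tconv cells in every sample, and Ikzf2 in resting Tconv cells reaches 177 CPM in V3 ∆Foxp3 samples.

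The distance between resting Treg and resting Tconv cells, as measured with a prior of 2 UMIs, was smaller in ∆Foxp3 samples. Over 27 measured genes of a 40-gene Treg signature, the median log2 ratio of resting Treg over resting Tconv cells was 1.52 and 0.82 in V2 ∆Foxp3 samples, against 2.48 and 2.69 in V2 WT samples. In V3 it was 0.50 and 1.01 in ∆Foxp3 samples, against 2.00 and 1.87 in WT samples. In chimeras it was 0.92, 2.21 and 1.29 in ∆Foxp3 samples, against 2.24, 2.51 and 2.51 in WT samples. The genotypes did not overlap in any of the 3 settings, and chimera ∆Foxp3 sample 2 lay just under the lowest chimera WT sample. The prior of 2 UMIs shrinks ratios more in smaller sums. V2 sums held 200422 and 69241 UMIs in ∆Foxp3 samples, against 577334 and 457124 in WT samples. Chimera sums held 96307 to 140995 UMIs in ∆Foxp3 samples, against 211131 to 439808 in WT samples. In V3 the ∆Foxp3 sums were the larger, at 136453 and 219328 against 127571 and 75630 UMIs. The part of depth in these ratios was not tested. The ratio depends on both cell classes: in V3 ∆Foxp3 samples, Ikzf2 in the resting Tconv cells was 177 and 161 CPM, against 4.55 and 10.8 CPM in V3 WT samples. Across all 14 samples 26 of the 27 genes had a median ratio above 0, with a median of 2.04 beside 0.04 over all genes.

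**Figure D2:**
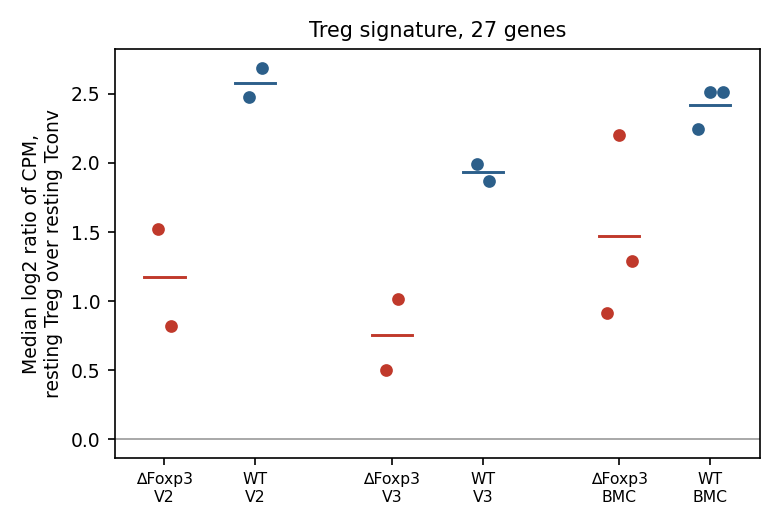
Median log2 ratio of resting Treg over resting Tconv cells for 27 Treg signature genes, with 1 point per sample, ∆Foxp3 samples in red and WT samples in blue. ∆Foxp3 samples lie between 0.50 and 2.21 and WT samples between 1.87 and 2.69.

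Resting Treg cells made up a smaller share of sorted CD4 T cells among ∆Foxp3 cells. In V2 they were 1.91% and 1.53% of the cells of ∆Foxp3 samples, against 4.17% and 4.36% of the cells of WT samples. The log2 difference was -1.30 (SE 0.37, adjusted p = 0.0159 by the edgeR quasi-likelihood test on cell numbers with Benjamini-Hochberg adjustment over 13 clusters), and it missed the threshold without WT sample A (adjusted p = 0.104) or WT sample B (adjusted p = 0.123). In chimeras the shares were 1.22%, 1.76% and 1.25% of ∆Foxp3 cells, against 4.82%, 4.54% and 4.53% of WT cells, a log2 difference of -1.75 (SE 0.20, adjusted p = 0.000114). In V3 they were 2.10% and 2.56% of ∆Foxp3 cells, against 2.95% and 3.69% of WT cells, and the log2 difference of -0.48 (SE 0.27) did not pass (adjusted p = 0.303). Sample values did not overlap between the genotypes in any setting. An exact two-sided permutation test of the shares reached p = 0.333 in V2 and V3 and p = 0.1 in chimeras, the smallest values that 2 against 2 and 3 against 3 samples allow. Among sorted GFP+ WT cells, all of them annotated as Treg, 37.1% ± 6.0 were resting (SD, n = 2).

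Resting cells were also counted as a share of the Treg-annotated cells. In V2 they were 26.4% ± 9.80 of the Treg-annotated cells in ∆Foxp3 samples and 79.8% ± 0.139 in WT samples (SD, n = 2 each), a log2 difference of -1.53 in the edgeR test (adjusted p = 0.00079). In V3 they were 34.3% ± 2.87 in ∆Foxp3 samples and 54.8% ± 14.2 in WT samples (SD, n = 2 each), a log2 difference of -0.70 that did not pass (edgeR adjusted p = 0.088). In chimeras they were 47.6% ± 9.93 among ∆Foxp3 cells and 50.8% ± 1.34 among WT cells (SD, n = 3 each), a log2 difference of -0.09 (adjusted p = 0.978, exact permutation p = 0.8). The activated Treg cluster itself held a larger share of all V2 ∆Foxp3 cells than of V2 WT cells (log2 difference 2.02, adjusted p = 0.00367) and a smaller share of chimera ∆Foxp3 cells than of chimera WT cells (-1.48, adjusted p = 0.0493). A further Treg cluster of the annotation, type A, was larger in V2 ∆Foxp3 samples (adjusted p = 0.000221 in the edgeR test). In V2 WT samples, resting cells (220 and 171) and activated cells (56 and 43) made up all 276 and 214 Treg-annotated cells. With no type A cell in V2 WT samples, the fitted log2 difference of 7.51 depends on the prior count and is no bound. Whether the effect on the balance of resting and activated cells differs between V2 and chimeras was not tested.

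**Figure D3:**
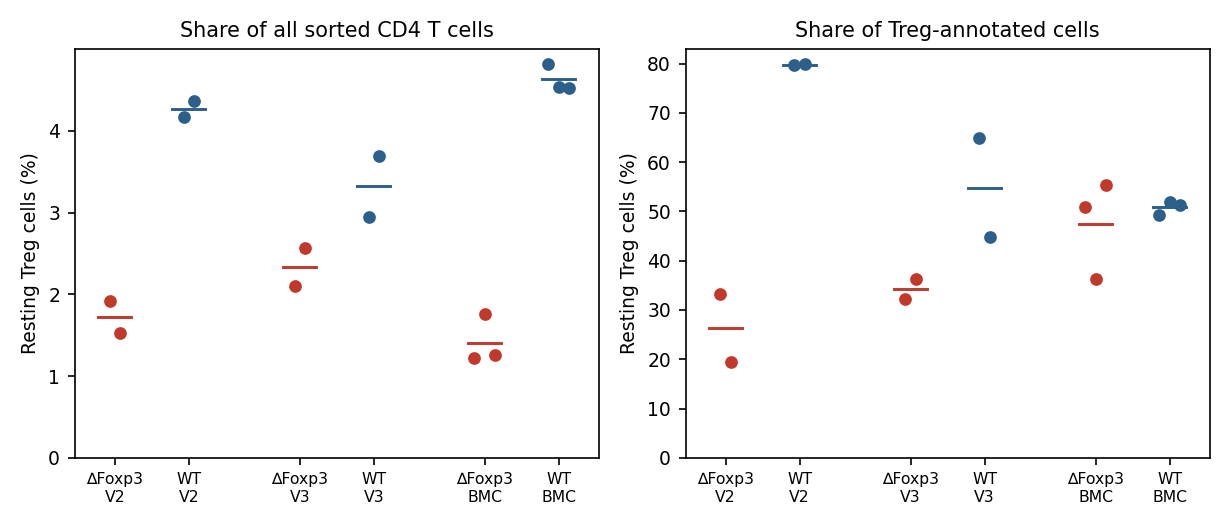
Resting Treg cells as a percent of sorted CD4 T cells (left) and of Treg-annotated cells (right), with 1 point per sample and bars at the group means, ∆Foxp3 in red and WT in blue. In chimeras the left panel places ∆Foxp3 samples at 1.22% to 1.76% and WT samples at 4.53% to 4.82%, whereas the ranges of the right panel overlap.

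Comparing ∆Foxp3 with WT resting Treg cells, 104 of 3684 genes were higher (2.82%) and 83 were lower (2.25%) in V2 at an adjusted p under 0.05 (edgeR quasi-likelihood test on UMIs summed per sample, Benjamini-Hochberg over all genes tested). In V3, 110 of 3183 genes were higher (3.46%) and 128 were lower (4.02%). In chimeras, 1 of 3183 genes was higher (0.0314%) and 6 were lower (0.189%), while 218 had an unadjusted p under 0.05. Single libraries weighed on these counts: 76 V2 genes passed without WT sample A and 72 without WT sample B, 98 V3 genes passed without WT sample 1 and 113 without ∆Foxp3 sample 2, and 1, 37 and 2 chimera genes passed without ∆Foxp3 sample 1, 2 and 3. In resting Tconv cells of the same chimeras 82 genes were higher and 37 lower among 10102 genes tested, in far larger sums of cells. The median change over all genes was -0.03 in V2, -0.03 in V3 and 0.01 in chimeras on the log2 scale. The percentages of all genes given above are those to set beside the list counts in resting Treg cells below.

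A set of 3 genes was lower in ∆Foxp3 resting Treg cells in V2, V3 and chimeras alike, comparisons that share no samples: Il2ra, Cd55 and Ctse. Il2ra (chr2:11642807-11693193, GRCm38, plus strand) measured 99.8 and 86.7 CPM in V2 ∆Foxp3 samples, against 237 and 225 CPM in V2 WT samples. In V3 it measured 103 and 73.0 CPM in ∆Foxp3 samples, against 282 and 264 CPM in WT samples. In chimeras it measured 49.6, 291 and 96.2 CPM in ∆Foxp3 samples, against 289, 371 and 385 CPM in WT samples. The groups were apart in V2 and V3, while chimera ∆Foxp3 sample 2 lay inside the WT range. Log2 changes of Il2ra were -1.31 (SE 0.28, adjusted p = 0.0018) in V2, -1.84 (SE 0.41, adjusted p = 0.00273) in V3 and -1.39 (SE 0.28, adjusted p = 0.0109) in chimeras. The call was lost in V2 without ∆Foxp3 sample A (adjusted p = 0.074), in V3 without ∆Foxp3 sample 2 (0.0605) or WT sample 1 (0.113), and in chimeras without ∆Foxp3 sample 1 (0.525) or sample 3 (0.253). With DESeq2 it was lost in V2 (adjusted p = 0.247) and in chimeras (0.0577). Without chimera ∆Foxp3 sample 2 the Il2ra BMC change was -2.22 (adjusted p = 2.18e-07).

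Cd55 (chr1:130439027-130462744, minus strand) encodes decay-accelerating factor, a membrane protein that protects cells from complement. It measured 4.99 and 0 CPM in V2 ∆Foxp3 samples, against 90.1 and 91.9 CPM in V2 WT samples. In V3 it measured 0 and 9.12 CPM in ∆Foxp3 samples, against 165 and 132 CPM in WT samples. In chimeras it measured 14.2, 31.2 and 29.6 CPM in ∆Foxp3 samples, against 128, 118 and 134 CPM in WT samples. No ∆Foxp3 sample reached a WT sample in any setting. The V2 sums held 1 Cd55 UMI in ∆Foxp3 and 94 in WT cells, a 24.5-fold lower level (exact interval 4.29 to 978), and the V3 sums held 2 and 31, a 27.1-fold lower level (6.91 to 234). In chimeras the log2 change was -2.31 (SE 0.41, adjusted p = 0.00185), and the adjusted p was 0.124 without ∆Foxp3 sample 1 and 0.0511 with DESeq2. DESeq2 also missed the threshold in V2 (adjusted p = 0.0817).

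Ctse (chr1:131638306-131675505, plus strand) encodes cathepsin E, an aspartic protease of the endolysosomal system. It measured 19.96 and 28.9 CPM in V2 ∆Foxp3 samples, against 156 and 142 CPM in V2 WT samples. In V3 it measured 7.33 and 22.8 CPM in ∆Foxp3 samples, against 94.1 and 106 CPM in WT samples. In chimeras it measured 21.3, 93.5 and 22.2 CPM in ∆Foxp3 samples, against 128, 150 and 130 CPM in WT samples. Chimera ∆Foxp3 sample 2 was again the highest of its group, though below every WT sample. The log2 changes were -2.78 (SE 0.45, adjusted p = 4.16e-05), -2.66 (SE 0.62, adjusted p = 0.00402) and -1.73 (SE 0.36, adjusted p = 0.0189). The V3 call was lost without WT sample 1 (adjusted p = 0.0923), and the chimera call without ∆Foxp3 sample 1 (0.527), ∆Foxp3 sample 3 (0.335) or WT sample 2 (0.0904) and with DESeq2 (0.216). Without chimera ∆Foxp3 sample 2 the Ctse BMC change was -2.59 (adjusted p = 0.000136).

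Cd55 and Ctse were lower in resting Tconv cells as well. There the log2 changes of Cd55 were -3.09 in V2, -3.29 in V3 and -0.71 in chimeras, and those of Ctse were -3.54, -3.97 and -3.14, all past the threshold in the same test on resting Tconv sums. Il2ra behaved otherwise: in resting Tconv cells it was higher in ∆Foxp3 samples of V2 (log2 change 1.30, adjusted p = 0.0326) and V3 (0.99, adjusted p = 0.0228) and lower in chimeras (-1.33, adjusted p = 0.023). Its levels in those Tconv sums were 2.04 to 16.1 CPM in ∆Foxp3 samples, against 2.26 to 11.1 CPM in unsorted WT samples.

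**Figure D4:**
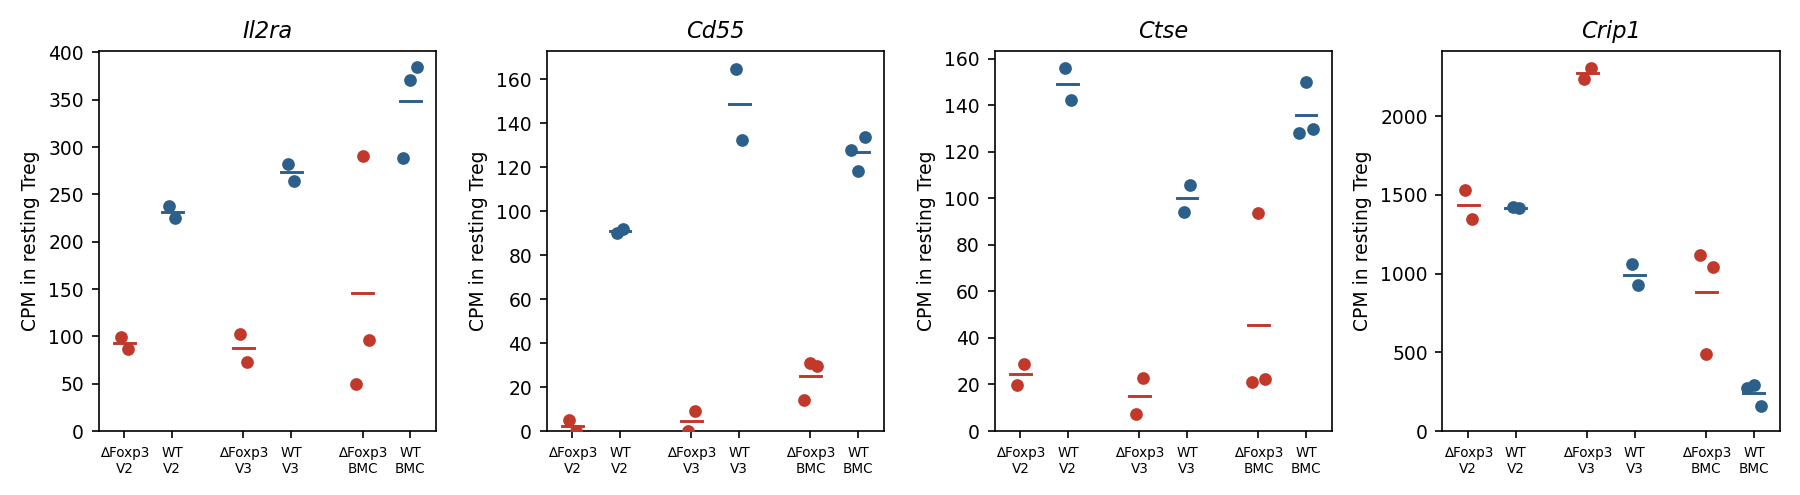
Levels of Il2ra, Cd55, Ctse and Crip1 in resting Treg cells in CPM for each sample, ∆Foxp3 in red and WT in blue. Cd55 lies below 32 CPM in every ∆Foxp3 sample and above 90 CPM in every WT sample, and Crip1 separates the genotypes in V3 and chimeras but not in V2.

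Ikzf2 and Ccr7 had no direction common to the 3 settings. Ikzf2 (chr1:69531214-69687245, minus strand) measured 125 and 173 CPM in V2 ∆Foxp3 samples, against 222 and 228 CPM in V2 WT samples. The log2 change of -0.75 did not pass (adjusted p = 0.0888). After cells with foreign marker UMIs were left out, which left ∆Foxp3 sample A alone, the change was -1.43. In V3 it measured 506 and 465 CPM in ∆Foxp3 samples, against 290 and 529 CPM in WT samples (log2 change 0.18, adjusted p = 0.827). In chimeras it measured 121, 706 and 244 CPM in ∆Foxp3 samples, against 521, 471 and 308 CPM in WT samples. The chimera change of -0.38 did not pass (adjusted p = 0.855), and without ∆Foxp3 sample 2, which held the highest value of all, it was -1.20 (adjusted p = 0.00152). Ccr7 (chr11:99144196-99155077, minus strand) measured 554 and 621 CPM in V2 ∆Foxp3 samples, against 203 and 247 CPM in V2 WT samples, a log2 change of 1.31 (SE 0.19, adjusted p = 4.16e-06). Ccr7 did not pass in V3, at 147 and 173 CPM in ∆Foxp3 samples and 110 and 225 CPM in WT samples, nor in chimeras, at 348, 208 and 185 CPM in ∆Foxp3 samples and 175, 175 and 247 CPM in WT samples.

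In chimeras, where both genotypes share a host, 7 genes passed. Crip1 (chr12:113146316-113153879, plus strand), a small LIM-domain protein abundant in activated lymphocytes, was the gene that was higher. It measured 1121, 488 and 1044 CPM in ∆Foxp3 samples, against 275, 291 and 162 CPM in WT samples, with no overlap and a log2 change of 1.92 (SE 0.21, adjusted p = 1.22e-07), and it passed under all 15 alternatives. In resting Tconv cells of the same chimeras the change was 1.93. Crip1 was also higher in V3 (2235 and 2307 CPM in ∆Foxp3 samples, against 1058 and 926 CPM in WT samples; log2 change 1.04, adjusted p = 0.00127, and 0.119 with DESeq2), and did not pass in V2 (1532 and 1343 CPM in ∆Foxp3 samples, against 1421 and 1418 CPM in WT samples; adjusted p = 0.978).

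Besides Il2ra, Cd55 and Ctse, the genes lower in chimera ∆Foxp3 cells were H2afz, Hopx and Capg. H2afz, which encodes the histone variant H2A.Z, measured 574, 955 and 570 CPM in ∆Foxp3 samples, against 1383, 1442 and 1276 CPM in WT samples, a log2 change of -0.97 (SE 0.17, adjusted p = 0.00185). Hopx, a homeodomain cofactor expressed by Treg cells, measured 35.5, 156 and 88.8 CPM in ∆Foxp3 samples, against 322, 234 and 194 CPM in WT samples (log2 change -1.46, adjusted p = 0.0264). Capg, an actin-capping protein of the Treg signature, measured 106, 218 and 163 CPM in ∆Foxp3 samples, against 403, 302 and 397 CPM in WT samples (log2 change -1.15, adjusted p = 0.04). None of the 3 overlapped between the genotypes, which the rule for naming the lowest genes required. All 3 missed the threshold without ∆Foxp3 sample 1 or sample 3, with adjusted p between 0.0843 and 0.569, and Hopx and Capg also without WT sample 1 (0.159 each) and Capg without WT sample 3 (0.102). Of 15 alternatives, Hopx missed the threshold under 5 and Capg under 8, DESeq2 and the removal of cells with foreign marker UMIs among them for both. Without ∆Foxp3 sample 2 the Hopx BMC change was -1.93. Without this sample, which has 16 cells and lay nearest to WT for Il2ra, Ctse and H2afz, the number of genes called was 37. With the mouse as a block, which pairs the origins of 1 host, it was 12, with 1 gene higher and 11 lower, and with the tube as a term it was 6.

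Of 23 tested members of the Treg signature in chimeras, 0 rose and 3 fell (Hopx, Il2ra, Capg), and 22 of 23 fitted changes lay below 0, with a list median of -1.0 beside 0.01 over all genes. None of the 3 calls passed without ∆Foxp3 sample 1 or sample 3 or with DESeq2, and 1 passed without WT sample 1. Members that did not pass include Ctla4, an inhibitory receptor that Treg cells use in suppression, at 35.5, 208 and 37.0 CPM in ∆Foxp3 samples and 161, 198 and 170 CPM in WT samples (log2 change -1.10, adjusted p = 0.322). Il2rb, the signalling chain of the IL-2 receptor, measured 42.6, 166 and 88.8 CPM in ∆Foxp3 samples and 242, 246 and 174 CPM in WT samples (-1.24, adjusted p = 0.0555). Tnfrsf4 measured 113, 301 and 104 CPM in ∆Foxp3 samples and 346, 384 and 296 CPM in WT samples (-1.07, adjusted p = 0.0555). In all of these, ∆Foxp3 sample 2 was the highest of its group. Of 20 tested resting Treg genes 0 rose and 1 fell (Cd55), with a list median of 0.17, and of 20 tested activated Treg genes 1 rose (Crip1) and 0 fell, with a median of -0.31. None of 29 tested interferon response genes passed, with a list median of -0.05.

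In V2, genes of the interferon response and of antigen presentation by MHC class I rose together in ∆Foxp3 resting Treg cells. Both lists rose in resting Tconv cells as well, in 38 of 50 tested interferon genes and 15 of 16 MHC class I genes. Of all genes tested there, 1203 of 10070 rose. The change was higher in resting Treg than in resting Tconv cells for 0 of 44 and 0 of 16 of these genes, and lower for 6 and 1. Counts below are for resting Treg cells. Of 32 tested members of a 51-gene interferon list, 17 rose and 1 fell (Ly6e, which missed the threshold under 8 of 10 alternatives), with a list median of 1.17 beside -0.03 over all genes. Igtp, an interferon-induced GTPase of cell-autonomous defence, measured 644 and 708 CPM in ∆Foxp3 samples, against 161 and 138 CPM in WT samples (log2 change 2.09, SE 0.19, adjusted p = 1.19e-10). Irgm1, a GTPase of the same family, measured 120 and 130 CPM in ∆Foxp3 samples, against 20.8 and 4.38 CPM in WT samples (log2 change 3.10, SE 0.49, adjusted p = 2.76e-05). Gbp2, a guanylate-binding protein, measured 434 and 549 CPM in ∆Foxp3 samples, against 55.4 and 107 CPM in WT samples (log2 change 2.51, SE 0.25, adjusted p = 9.73e-10). The genotypes did not overlap in any of the 3, and these calls passed under all 10 alternatives. Iigp1, a further GTPase of this kind, had the second highest change among the named genes, 4.17 on the log2 scale. Of the 17 calls, 16 had a value with DESeq2 and 9 of these passed. Some were lost without ∆Foxp3 sample A, WT sample A or WT sample B, in fits that leave 1 sample in a group. The fit after cells with foreign marker UMIs were left out held ∆Foxp3 sample A alone, so it is no check apart from leaving out sample B.

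The promoters of Irgm1, Gbp2 and Igtp are shown because their genes rose in V2 and because each holds, within 250 bases upstream of the start, the letters GAAA, any 2 bases and GAAA again, on either strand, the core of the element bound by interferon regulatory factors. Sequences are from RefSeq (GRCm38.p6), written in the direction of transcription with the matches in capitals, at chr11:48871421-48871670 (minus strand) for Irgm1, chr3:142620413-142620662 (plus strand) for Gbp2 and chr11:58199306-58199555 (plus strand) for Igtp.
Irgm1: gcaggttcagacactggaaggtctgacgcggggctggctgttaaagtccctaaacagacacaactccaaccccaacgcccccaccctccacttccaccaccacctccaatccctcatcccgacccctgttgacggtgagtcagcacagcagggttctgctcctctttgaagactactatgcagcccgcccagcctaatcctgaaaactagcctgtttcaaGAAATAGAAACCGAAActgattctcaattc
Gbp2: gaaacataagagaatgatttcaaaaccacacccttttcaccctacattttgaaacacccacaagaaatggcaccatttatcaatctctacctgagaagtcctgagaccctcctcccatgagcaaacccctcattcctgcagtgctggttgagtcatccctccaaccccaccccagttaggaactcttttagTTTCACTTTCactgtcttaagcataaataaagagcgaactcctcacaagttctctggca
Igtp: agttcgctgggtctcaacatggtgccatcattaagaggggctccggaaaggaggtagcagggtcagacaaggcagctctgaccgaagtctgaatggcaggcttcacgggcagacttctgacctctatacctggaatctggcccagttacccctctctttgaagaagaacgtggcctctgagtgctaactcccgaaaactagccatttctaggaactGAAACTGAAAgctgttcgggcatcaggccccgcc
In Irgm1 the 2 matches overlap, and in Gbp2 the match is on the opposite strand. The sequence was found in 2.98% of 32851 promoter windows of this length. Of the 17 interferon genes that rose, 10 had a window and 6 of these held it, as did 6 of the 10 with a window among the 15 other interferon genes tested, so the letters do not separate genes that rose from the rest of the list. The STAT-like letters TTC, any 3 bases and GAA, in 7.02% of all windows, was found in 3 of 10 and 2 of 10. A match is a description of the sequence and not evidence of binding.

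Of 15 tested genes of MHC class I presentation, 11 rose in V2 ∆Foxp3 cells and 0 fell, with a list median of 0.97. Psmb8, a subunit of the immunoproteasome, measured 1666 and 1906 CPM in ∆Foxp3 samples, against 844 and 869 CPM in WT samples (log2 change 0.98). Psme1, a subunit of the proteasome activator, measured 948 and 1141 CPM in ∆Foxp3 samples, against 412 and 446 CPM in WT samples (log2 change 1.19). H2-T22, a non-classical MHC class I gene whose close relatives can share reads, measured 529 and 491 CPM in ∆Foxp3 samples, against 210 and 260 CPM in WT samples (1.09, not past the threshold without WT sample A, adjusted p = 0.15). All 11 passed without ∆Foxp3 sample B, 5 passed without WT sample A, 5 without WT sample B and 6 with DESeq2. Among the genes with the highest changes, 2 serve presentation by MHC class II. H2-DMa, a chaperone of peptide loading, measured 524 and 231 CPM in ∆Foxp3 samples, against 36.4 and 21.9 CPM in WT samples (3.80), and Cd74, the invariant chain, measured 244 and 144 CPM in ∆Foxp3 samples, against 31.2 and 32.8 CPM in WT samples (2.71). B cells and myeloid cells also express class II genes. In the V2 ∆Foxp3 sums, 6 of 11 B cell markers had a UMI, with Cd79a, Ms4a1 and Ebf1 at 0, and the summed level of that list, which holds Cd74 itself, was 231 to 314 CPM, against 172 to 228 CPM in V2 WT sums. Without Cd74 and the other class II genes, the 8 remaining B cell markers summed to 49.9 to 57.8 CPM in V2 ∆Foxp3 samples, against 135 to 190 CPM in V2 WT samples. Of 13 myeloid markers 3 had a UMI, with Lyz2, Csf1r, Itgam and Cd68 at 0, and a summed level of 347 to 419 CPM, against 329 to 333 CPM in V2 WT sums. The erythroid and platelet list summed to 220 to 679 CPM in V2 ∆Foxp3 samples, against 221 to 275 CPM in V2 WT samples. Of the markers used to leave out cells, Cd79a, Ms4a1, Lyz2, Csf1r, Pf4 and Ppbp had no UMI in V2 ∆Foxp3 sums. Only cells with Tyrobp, Hba-a1 or Hbb-bs UMIs were therefore left out there, and sample B fell away with them. That fit is thus no check on B cell or myeloid RNA behind H2-DMa and Cd74. The part of such RNA in the result was not tested.

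Further genes among the 10 highest or lowest in V2 were Ncoa7, Myo6, Id2 and Id3. Ncoa7, a nuclear receptor coactivator gene with an interferon-inducible form, measured 763 and 534 CPM in ∆Foxp3 samples, against 52.0 and 37.2 CPM in WT samples (log2 change 3.87, adjusted p = 2.65e-15). Myo6, an actin motor, measured 215 and 303 CPM in ∆Foxp3 samples, against 12.1 and 0 CPM in WT samples (5.02, adjusted p = 1.51e-10, and 0.0607 with DESeq2). Id2, an inhibitor of E proteins linked to effector differentiation, measured 130 and 246 CPM in ∆Foxp3 samples, against 15.6 and 24.1 CPM in WT samples (2.99), while its relative Id3, linked to the resting state, measured 89.8 and 43.3 CPM in ∆Foxp3 samples, against 253 and 304 CPM in WT samples (-1.88). These opposite calls of Id2 and Id3 held under all 10 alternatives. Of 22 tested Treg signature genes 4 fell (Il2ra, Nrp1, Folr4 and Gpr83) and 2 rose (Rgs1 and Ecm1), with a list median of -0.37. None of these 6 calls passed with DESeq2. Without WT sample A 2 of the 4 lower calls and 0 of the 2 higher ones passed, without WT sample B 1 and 1, and without ∆Foxp3 sample A 1 of the 4 lower ones. Ecm1 missed the threshold under 8 of 10 alternatives, with a change of 0.28 without ∆Foxp3 sample B, and Gpr83 under 7. Folr4, the current Izumo1r, encodes folate receptor 4 of Treg cells and measured 474 and 448 CPM in ∆Foxp3 samples, against 783 and 897 CPM in WT samples (-0.90). Nrp1, which encodes neuropilin 1, measured 34.9 and 14.4 CPM in ∆Foxp3 samples, against 81.4 and 94.1 CPM in WT samples (-1.59, adjusted p = 0.0307), and passed under 3 of 10 alternatives.

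Of 19 tested genes of the resting state in V2, 3 rose (Ccr7, Bcl2 and Igfbp4) and 1 fell (Cd55), with a list median of 0.09. Igfbp4, a secreted binding protein of insulin-like growth factors and a marker of naive T cells, measured 534 and 390 CPM in ∆Foxp3 samples, against 132 and 98.5 CPM in WT samples (log2 change 2.02, SE 0.22, adjusted p = 6.81e-09). Of 14 tested IL-2 and STAT5 targets 4 rose, among them the feedback inhibitors Socs1 (log2 change 1.12) and Socs3 (1.26), and 2 fell, Il2ra and Pim1. None of these 6 passed with DESeq2, 0 of the 4 higher ones passed without WT sample B, 2 of them without WT sample A and 2 without ∆Foxp3 sample A, where 0 of the 2 lower ones passed. Of 13 tested activated Treg genes 3 rose, S100a4, S100a6 and Id2, and 1 fell, S100a10. Of the 3, 1 (Id2) passed without WT sample A, without WT sample B and after cells with foreign marker UMIs were left out. Of 7 tested heat shock genes 3 fell, and Hsp90ab1, a chaperone, measured 654 and 491 CPM in ∆Foxp3 samples, against 1441 and 1201 CPM in WT samples (-1.19, adjusted p = 3.63e-07). Mitochondrially encoded genes fell in 4 of 10 tests, by 0.32 to 0.44 on the log2 scale, and 0 of these 4 calls passed without WT sample A, without WT sample B or with DESeq2. Median mitochondrial UMIs per resting Treg cell were 2.11% and 1.88% in ∆Foxp3 samples, against 2.40% and 2.48% in WT samples.

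In V3, ∆Foxp3 resting Treg cells carried transcripts of activated Treg cells and of type 1 effector cells. The same lists rose in resting Tconv cells, in 31 of 32 tested activated Treg genes and 16 of 18 type 1 and cytotoxic genes. Of all genes tested there, 2261 of 10102 rose. The change was higher in resting Treg than in resting Tconv cells for 1 of 32 and 0 of 17 of these genes, and lower for 5 and 1. In resting Treg cells 16 of 20 tested activated Treg genes rose and 0 fell, with a list median of 2.81 beside -0.03 over all genes. S100a4, a calcium-binding protein of effector and memory T cells, measured 1686 and 2088 CPM in ∆Foxp3 samples, against 23.5 and 172 CPM in WT samples (log2 change 4.42, SE 0.37, adjusted p = 3.03e-11). Lgals1, which encodes galectin 1, measured 1348 and 2257 CPM in ∆Foxp3 samples, against 165 and 172 CPM in WT samples (3.304, SE 0.28, adjusted p = 4.13e-11). Id2 measured 1180 and 1094 CPM in ∆Foxp3 samples, against 15.7 and 0 CPM in WT samples, from 401 and 2 UMIs, a ratio of 115 (exact interval 31.5 to 949). Groups were far apart in each, and these 3 passed under all 14 alternatives. Without V3 WT sample 1, which leaves the 13 cells of sample 2 as the only WT value, 10 of the 16 calls passed.

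Of 7 tested type 1 and cytotoxic genes 4 rose in V3, with a list median of 3.04. Ccl5, a chemokine released by effector T cells, measured 3049 and 1742 CPM in ∆Foxp3 samples, against 23.5 and 52.9 CPM in WT samples (log2 change 5.92, SE 0.37, adjusted p = 8.47e-15). Nkg7, a cytotoxic granule protein, measured 498 and 780 CPM in ∆Foxp3 samples, against 7.84 and 106 CPM in WT samples (3.72, adjusted p = 2.4e-07), and Cxcr3, the chemokine receptor of type 1 cells, measured 220 and 160 CPM in ∆Foxp3 samples, against 0 and 52.9 CPM in WT samples (3.04, adjusted p = 0.00257). Several genes had no UMI in the WT sums, so their ratio is a lower bound against 3 UMIs over the group. Lgals3, which encodes galectin 3, was at least 29.1-fold higher, Ctla2a, a cathepsin inhibitor, at least 17.3-fold, Cxcr6, a homing receptor of effector cells, at least 12.8-fold, Bhlhe40, a transcription factor of effector T cells, at least 10.3-fold, and Lag3, an inhibitory receptor, at least 6.66-fold higher. The calls of Cxcr3 and Lag3 were lost without WT sample 1 (adjusted p = 0.212 and 0.126), that of Bhlhe40 without ∆Foxp3 sample 2 (0.103) and that of Nkg7 with DESeq2 (0.064).

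Of 20 tested genes of the resting state, 9 fell in V3 and 1 rose (Il7r), with a list median of -0.76. In resting Tconv cells 17 of 20 fell and 1 rose, beside 1981 of 10102 genes that fell in all. The change was higher in resting Treg than in resting Tconv cells for 5 of 20 and lower for 0. Il6ra, a receptor chain for IL-6 that T cells lose on activation, was 21.0-fold lower in ∆Foxp3 cells (2 UMIs in ∆Foxp3 and 24 in WT cells, exact interval 5.22 to 183). Foxp1, a transcription factor that holds T cells in quiescence, fell by 1.81 on the log2 scale. Ighm, an immunoglobulin gene of B cells whose RNA can reach other droplets, held 3 UMIs in ∆Foxp3 and 46 in WT cells, and the summed B cell list was 95.3 to 169 CPM in V3 ∆Foxp3 samples, against 290 to 331 CPM in V3 WT samples, with Ms4a1 and Ebf1 at 0 in both. Of 23 tested Treg signature genes 3 fell, Il2ra, Folr4 and Lrrc32, and 3 rose, Tnfrsf4, Serinc3 and Lgals1, with a list median of -0.29. Without WT sample 1, 1 of the 3 lower calls passed, that of Folr4. Folr4 measured 117 and 73.0 CPM in ∆Foxp3 samples, against 611 and 873 CPM in WT samples (-3.12, SE 0.30, adjusted p = 9.78e-10). Lrrc32, which encodes GARP, the anchor of latent TGF-β on Treg cells, measured 7.33 and 22.8 CPM in ∆Foxp3 samples, against 165 and 132 CPM in WT samples (-3.28, adjusted p = 0.00278, and 0.11 without WT sample 1). Tnfrsf4 measured 608 and 461 CPM in ∆Foxp3 samples, against 149 and 278 CPM in WT samples (1.25), and its call was lost without WT sample 1 (adjusted p = 0.286) and with the sorted Treg samples counted as WT, where the change was 0.16.

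In V3, of 29 tested members of the interferon list 1 rose (Ly6a) and 3 fell (Ifi27l2a, Gbp2 and Sp100), with a list median of -0.33, and of 16 tested MHC class I genes 1 rose (H2-Q6) and 0 fell. When any 1 V3 sample was left out 1 of the 3 lower calls passed, that of Ifi27l2a. The calls of Ly6a and H2-Q6 were lost without WT sample 1, and that of Ly6a also without ∆Foxp3 sample 2 and with DESeq2. Gbp2 measured 51.3 and 50.2 CPM in V3 ∆Foxp3 samples, against 86.2 and 185 CPM in V3 WT samples (log2 change -1.43, adjusted p = 0.0483), and it kept its call under 3 of 14 alternatives. The difference between V2 and V3 was not tested, since the kits were fitted apart. Metabolic genes moved in V3: 6 of 10 tested glycolysis genes rose and 0 fell, with a list median of 0.99, and 6 of 11 mitochondrially encoded genes fell and 0 rose, with a median of -0.72. In resting Tconv cells of the same libraries 14 of 16 glycolysis genes rose and 11 of 12 mitochondrially encoded genes fell. Of all genes tested there, 2261 of 10102 rose and 1981 fell. The change was higher in resting Treg than in resting Tconv cells for 0 of 15 glycolysis genes and lower for 1. It was neither for any of 12 mitochondrially encoded genes. In resting Treg cells Gapdh, a glycolytic enzyme, measured 1480 and 2152 CPM in ∆Foxp3 samples, against 494 and 661 CPM in WT samples (1.57, SE 0.19, adjusted p = 1.44e-07). mt-Nd2, a subunit of respiratory complex I, measured 1246 and 1331 CPM in ∆Foxp3 samples, against 3849 and 3042 CPM in WT samples (-1.57, SE 0.15, adjusted p = 5.22e-10). All 6 mitochondrial calls passed under every alternative run, while of the 6 glycolysis calls 2 passed without WT sample 1, 2 without WT sample 2 and 1 without ∆Foxp3 sample 2. Median mitochondrial UMIs per resting Treg cell were 5.18% and 4.53% in V3 ∆Foxp3 samples, against 6.65% and 6.43% in V3 WT samples, and the part of this difference in the result was not tested.

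**Figure D5:**
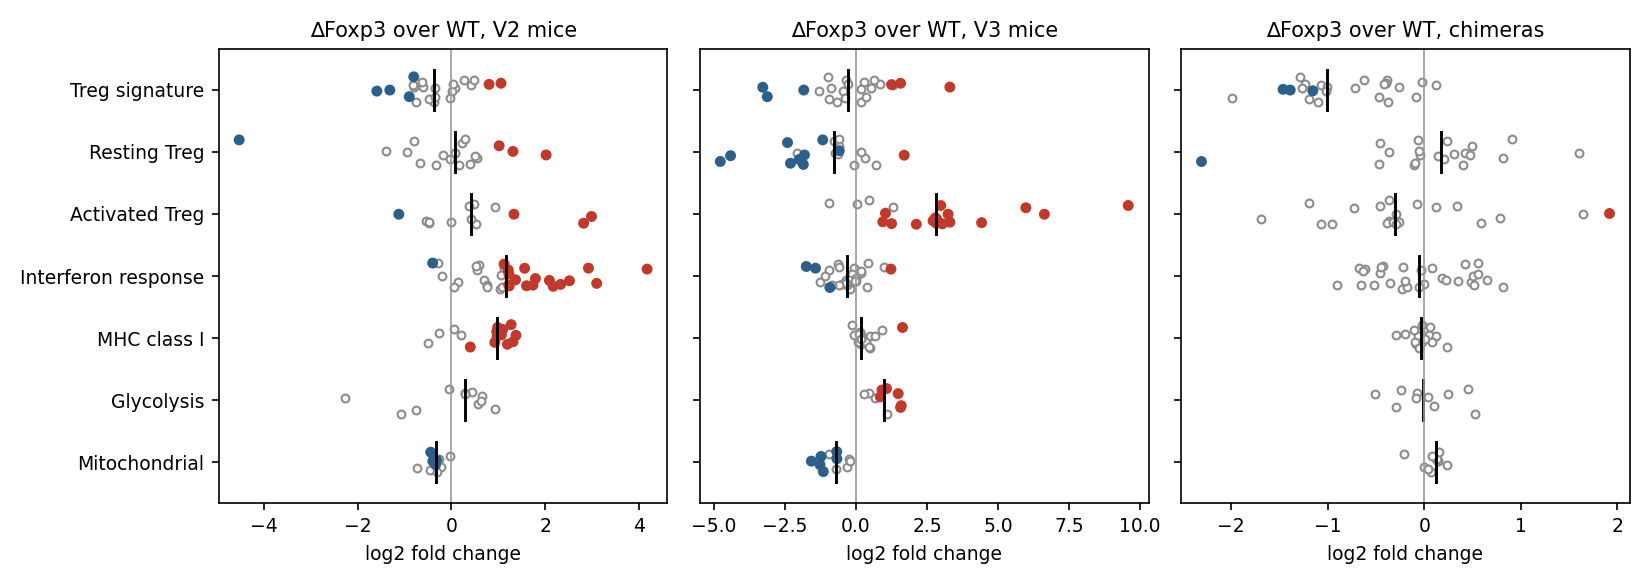
Log2 change of each tested member of 7 gene lists in resting Treg cells, ∆Foxp3 over WT, with 1 panel per comparison, filled red for members that rose, filled blue for members that fell, open for members that did not pass, and a black bar at the list median. The interferon list is shifted up in V2, the activated Treg list in V3, and 22 of 23 Treg signature members lie below 0 in chimeras, with x ranges that differ between panels.

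Genes called in V2 and V3 overlapped in part. Of those tested in both, 33 were lower in both, which is 39.8% of the V2 and 25.8% of the V3 genes called lower, and 11 were higher in both, which is 10.6% and 10% of the genes called higher. The 33 include Il2ra, Cd55, Ctse, Id3, Folr4 and Ighm, and 10 genes of ribosomal proteins, a family with many near-identical copies whose reads can be split. Among all tested Rps and Rpl genes 13 of 93 fell and 2 rose in V2, 28 of 84 fell and 0 rose in V3, and 0 of 84 were called in chimeras. The 11 include Id2, Ccl5, Ncoa7, S100a4 and S100a6. Of the 6 genes lower in chimeras, 3 were also lower in V2 and 3 in V3 (3.61% and 2.34% of those lists), and Crip1 was shared with V3. Without scaling beyond total UMIs the median of all V3 genes shifted by 0.17, and 168 genes were higher and 90 lower in place of 110 and 128. In V2 the split was then 113 higher and 60 lower.

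The difference between ∆Foxp3 and WT resting Treg cells was itself unlike in intact mice and chimeras for 131 genes (50 without V3 ∆Foxp3 sample 2, 53 without V3 WT sample 1 and 84 without chimera ∆Foxp3 sample 1): 54 of 3183 had a higher change in V3 than in chimeras (1.7%) and 77 a lower one (2.42%). Ccl5 changed by 5.92 in V3 and 0.24 in chimeras, a difference of 5.68 (SE 0.78, adjusted p = 3.8e-06). It averaged 2395 CPM in V3 ∆Foxp3 and 38.2 CPM in V3 WT samples, and 30.3 CPM in chimera ∆Foxp3 and 29.0 CPM in chimera WT samples. Folr4 changed by -3.12 in V3 and -0.47 in chimeras, a difference of -2.65 (SE 0.36, adjusted p = 2.83e-06). It averaged 95.1 CPM in V3 ∆Foxp3 and 742 CPM in V3 WT samples, and 571 CPM in chimera ∆Foxp3 and 784 CPM in chimera WT samples. Il6ra averaged 5.94 CPM in V3 ∆Foxp3 and 126 CPM in V3 WT samples, and 86.0 CPM in chimera ∆Foxp3 and 82.5 CPM in chimera WT samples. Besides the shared host, the V3 groups differ in age, 3 against 9 weeks, which chimera groups do not, and these cannot be told apart. CD45 alleles also go with genotype, through the CD45.1 background in V3 and as CD45.1/2 against CD45.1 in chimeras.

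To test which differences were unlike those of resting Tconv cells, the change in resting Treg cells was set against the change in resting Tconv cells of the same libraries. In V2, 10 of 7912 genes had a higher change in resting Treg cells (0.126%) and 59 a lower one (0.746%). In V3, 33 of 9186 had a higher (0.359%) and 43 a lower change (0.468%). In chimeras 1 had a higher (0.0109%) and 1 a lower change (0.0109%). The V2 total of 69 was 29 without WT sample A and 23 without WT sample B. The V3 total of 76 was 36 without ∆Foxp3 sample 1, 33 without ∆Foxp3 sample 2 and 23 without WT sample 2. The chimera total of 2 was 4, 14 and 1 without ∆Foxp3 sample 1, 2 and 3, and 0 and 1 without WT sample 2 and 3. The Treg signature gave 17 of 32 tested members with a lower and 0 with a higher change in V2, 11 of 36 and 0 in V3, and 0 of 36 either way in chimeras. Ikzf2 had a difference of -2.79 (SE 0.32, adjusted p = 9.71e-15) in V2: it averaged 149 CPM in ∆Foxp3 and 225 CPM in WT resting Treg cells, while it averaged 24.4 CPM in ∆Foxp3 and 5.28 CPM in WT resting Tconv cells. In V3 its difference was -4.02 (SE 0.34, adjusted p = 6.33e-29), with Tconv averages of 169 CPM in ∆Foxp3 and 7.68 CPM in WT samples. Nrp1 (-3.27 in V2, -5.72 in V3), Il2rb (-2.57 and -3.25) and Il2ra (-2.60 and -2.78) had negative differences as well, and all 3 were higher in ∆Foxp3 than in WT resting Tconv cells in both settings. Igfbp4 had positive differences, of 1.97 in V2 and 2.70 in V3, and so had Id2, of 1.77 and 2.72.

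In chimeras H2afz was the gene with the lower change (-0.91, SE 0.16, adjusted p = 5.36e-05). It averaged 700 CPM in ∆Foxp3 and 1367 CPM in WT resting Treg cells, and 333 CPM in ∆Foxp3 and 386 CPM in WT resting Tconv cells. The other gene, with the higher change, was Pdlim4, a cytoskeletal adaptor, named here after its values were seen, at 42.9 CPM in ∆Foxp3 and 2.11 CPM in WT resting Treg cells, and 122 CPM in ∆Foxp3 and 110 CPM in WT resting Tconv cells. Il2ra, Cd55, Ctse and Crip1 had no interaction past the threshold in chimeras, with adjusted p of 1, 0.264, 0.646 and 1, which does not show that the changes in both classes were alike.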

How the data were processed

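Splenic CD4 T cells of 18 samples were profiled with 10x Genomics 3' kits. Per the submitters' processing notes, reads were processed with Cell Ranger 3.0.2 against mm10. The deposited matrix holds UMI counts of 33006 genes in 26652 cells, of which 17739 genes had a UMI. In the Foxp3 row of that matrix the authors had added GFP counts in WT cells and Cre counts in ∆Foxp3 cells, and the separate deposited Foxp3 counts replaced it here. Cluster names, the percent of mitochondrial UMIs per cell, the Scrublet doublet score per cell (at most 0.293 among resting Treg cells) and, for V2, the fraction of reads in cells were used as deposited by the authors. Doublets were not called again. The cell metadata name V3 throughout, and the sample labels were followed for the kit instead. Of 59 metadata columns 45 were not used. Of 26553 barcodes 99 occur in more than 1 library, none of them within a 10x tube, and 6 resting Treg cells share a barcode with another cell. No source used here says whether counting used strand, so overlapping antisense genes cannot be told apart.

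UMIs were summed per sample and class, for classes of at least 10 cells. ∆Foxp3 was tested against WT with the edgeR 4.0.16 quasi-likelihood test (R 4.3.3, scaled by TMM, genes kept by filterByExpr at a minimum of 10 UMIs) and Benjamini-Hochberg adjustment over all genes tested, at 0.05. V2 was fitted alone, and V3 with the chimeras. Class interactions kept the sample as a block. Cluster sizes were tested with edgeR on cell numbers, and shares also by exact permutation. Identity was described by log2 ratios of CPM within a sample, with a prior of 2 UMIs, among genes of at least 20 CPM. Shares of cells were repeated after thinning each cell to 1500 UMIs, which no cell fell below. Ratios of low counts carry exact 95% intervals, and a count of 0 was read as at most 3 counts. Such limits cover counting error only. DESeq2 1.42.0, limma 3.58.1, other filters, scalings and priors, a replicate block and leaving out each sample were the alternatives. The fits of ∆Foxp3 against WT in resting Treg cells and the class interactions were tested on simulated counts. The fits of cell numbers, the difference between V3 and chimeras, the resting Tconv fits and DESeq2 were not.

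Members and gene lists (27 lists, 437 entries, of which 434 matched) were chosen with earlier results of these data known. The text names the 10 highest and 10 lowest called genes of a comparison with a mean of at least 50 CPM, 5 a side for interactions, the 4 markers and up to 4 genes a list. For the highest and lowest genes of a genotype comparison, no overlap between the samples of the genotypes was also required. The lack of overlap of such genes therefore adds no support. Other named list members, and genes named because 5 or fewer were counted, were chosen after their values were seen. Chimera numbers mark the same host, so the block is given beside the chimera count, although the deviations of same-numbered samples correlated at 0.002, 0.05 and -0.01 only. Some genes counted in the lists and totals are not reported here by name.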

Additional observations from a re-analysis of the deposited data

Results flagged for a closer look

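The effect of ∆Foxp3 differed between V3 mice and chimeras for 131 genes by the test of the difference itself in edgeR. For Lgals3 and Ctla2a the fitted differences were 10.04 and 8.59 on the log2 scale, and since both had no UMI in V3 WT cells these values depend on the prior count and are no bound. The difference was 6.70 for Anxa2, 5.79 for Nkg7 and 5.68 for Ccl5. It was -4.56 for Il6ra, -4.30 for Ighm, -3.29 for Actn1, -2.67 for Nsg2 and -2.65 for Folr4. Nkg7 changed by 3.72 in V3 and by -2.06 in chimeras, where its mean was 6.92 CPM in ∆Foxp3 and 28.4 CPM in WT cells. Actn1 averaged 11.4 CPM in V3 ∆Foxp3 and 101 CPM in V3 WT samples, and 92.9 CPM in chimera ∆Foxp3 and 86.6 CPM in chimera WT samples. Age and the CD45.1 background differ between the V3 groups and cannot be told apart from genotype in these differences.

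The effect of ∆Foxp3 differed between resting Treg and resting Tconv cells for 69 genes in V2, 76 in V3 and 2 in chimeras. In V3 ∆Foxp3 samples, resting Tconv cells carried GFP in 31.7% and 35.7% of cells, and the part of these cells in the V3 differences was not tested.

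Signals also appeared outside the comparisons. Cre gave 8 UMIs in resting Treg cells of ∆Foxp3 samples and none in those of WT samples. In the first sample of sorted GFP- Tconv cells, 3 of 362 cells (0.829%) were annotated as resting Treg, and in the second 0 of 148, which allows a share of up to 2.03%.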

How the results depend on the processing

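V2 rested on 187 genes, and DESeq2 called 43, with no adjusted p for 1214. Leaving out 1 sample gave 72 to 239 genes. V3 rested on 238 genes, and DESeq2 called 137, the sorted Treg samples as WT gave 400, and leaving out 1 sample 98 to 219. For chimeras, with 7 genes, DESeq2 called 2, no filter beyond 1 UMI gave 21, a minimum count of 5 gave 13, a minimum of 20 cells 50, and leaving out 1 sample 1 to 37. The replicate block gave 12 genes in chimeras, 145 in V2 and 220 in V3, and log2 differences in share of -1.29 in V2, -0.50 in V3 and -1.74 in chimeras. V2 letters and V3 numbers share only a name or a tube, with correlations of 0.10 and 0.08. The difference between V3 and chimeras gave 50 to 166 genes when 1 sample was left out.

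With activated Treg cells as the other class, the interaction gave 109 genes in V2, 15 in V3 and 0 in chimeras. Only genes past the resting Treg filter gave 1 in chimeras. Leaving out 1 sample gave 23 to 55 in V2, 23 to 91 in V3 and 0 to 14 in chimeras. The V2 share ran between -1.48 and -1.16, and the chimera share of Treg-annotated cells was -0.094. With a prior of 5 UMIs, 2 genes were set apart from resting Tconv and 4 from activated Treg cells, and a 4-fold limit left 0 against resting Tconv cells.

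Ccr7 in V3 turned to 0.044 with no filter, 0.36 with at least 20 cells, 0.10 without scaling, and 0.35 and 0.06 without WT sample 2 and ∆Foxp3 sample 1, in a range of -0.48 to 0.35 over samples left out. Ikzf2 turned to -0.14 in V3 without WT sample 1, in a range of -0.14 to 0.52, and to 0.069 in chimeras without ∆Foxp3 sample 1, in a range of -1.20 to 0.069. None of the turned values passed the test, and the cause was not tested. Of 1931 alternatives for 166 gene results, those above reversed. Scaling by total UMIs, the 10x tube as a term and the restricted filter were chosen after seeing the data. A minimum of 20 cells changed no V2 sample. Sums of 13 to 26 cells limit the depth of V3 and of chimera ∆Foxp3 samples, where low genes could not be tested.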
